A study of Mus musculus with 4 samples.

Results

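The genes described here are 53 genes for proteins of the extracellular matrix other than collagens, together with enzymes and partners that build or cut the matrix. They were chosen by name and not by a measured value, and comprised 22 glycoproteins, 7 proteoglycans, 9 basement membrane proteins and 15 modifying enzymes and their partners. Of the 20340 gene labels with a value in all 4 samples, 52 were members, and Loxl1 was not analysed here. These labels, and every share of tested genes below, cover chromosomes 1 to 6, 10 to 19 and part of 7, while chromosomes 8, 9, X and Y were not analysed here. The study compared mRNA of the tibialis anterior (TA) muscle, a fast muscle of the lower leg, from C57BL/6 wild-type mice at 20 months of age (Old 1 and Old 2) and at 3 months of age (Young 1 and Young 2), to find genes whose level differs in the muscle wasting of old age. The samples were whole muscle, so muscle fibers, fibroblasts, vessels, nerve and blood cells all gave RNA, and the sources used here do not say whether the 2 samples of an age came from separate mice.

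Muscle fibers are wrapped in a basement membrane, a thin sheet in which laminins bind the fiber and nidogens, perlecan and agrin tie the laminin and collagen IV networks together. Outside it lies an interstitial matrix, made mostly by fibroblasts, in which collagen fibrils and elastic fibers are arranged by small leucine-rich proteoglycans, fibulins and thrombospondins, and in which matricellular proteins such as periostin carry signals rather than loads. Procollagen is hydroxylated and folded inside the cell, trimmed outside it and crosslinked by lysyl oxidases. Metalloproteinases remove the collagen again, and their inhibitors restrain them.

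Levels are FPKM, that is fragments per length of transcript and per depth of the library, and can therefore be compared between genes. The deposited values differed by a factor between samples of an age, since members were 1.91 to 6.72 times higher in Old 1 than in Old 2 (median 2.07) and 1.58 to 5.57 times higher in Young 2 than in Young 1 (median 2.01). Each sample was therefore divided by 1 factor (1.46 for Old 1, 0.680 for Old 2, 0.689 for Young 1 and 1.47 for Young 2), and levels below are these scaled FPKM unless called deposited. Read depth was unknown, summed FPKM ranged from 226747 to 739302, and 5223 to 9558 rows per sample were listed at 0, with more of them in Old 2 and Young 1. Muscle markers were high but uneven, with a summed level of 9493 to 23870 over 7 markers. Of these, 2, 3, 2 and 1 were listed at 0 in Old 1, Old 2, Young 1 and Young 2. Among them, Neb (nebulin) was listed at 0 in Old 2 and Young 1, and Ttn (titin) in both Old samples. All 5 markers of slow fibers were higher in Old, with sums of 798 and 619 in Old against 40.6 and 49.7 in Young. Whether this difference in fiber type bears on any member was not tested.

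Most members were lower in old muscles by a small amount, with Eln (elastin), Sparc and the collagen-making partners Serpinh1 and Pcolce among the lowest, while Cyr61 stood alone far above. Each log2 fold change is Old minus Young of log2(scaled FPKM + 1), which understates the change of low genes, and a gene was called at an adjusted p under 0.05 in limma (Benjamini-Hochberg over 10266 tested genes). Of 50 tested members, 10 fell (20.0%, beside 7.94% of all tested genes) and 2 rose (4.0%, beside 5.61% of all tested genes), and the other 38 were not called. At an unadjusted p under 0.05 in limma, 24 members were lower and 4 higher, beside 17.7% and 16.2% of all tested genes. Tnc (tenascin C) and Vcan (versican, a large hyaluronan-binding proteoglycan) were below the filter of at least 1 FPKM in at least 2 samples, with levels of 0.217 to 0.515 and 0.216 to 0.461. The median log2 fold change of the members was -0.29, beside -0.01 over all tested genes, and 39 members lay below 0 and 11 above. Both Old values were below both Young values for 31 members (28.4% of all tested genes did so) and above them for 9 (27.8% of all tested genes), and 10 overlapped. By a fold of at least 1.5 with no test, 10 members were lower (6.91% of all tested genes) and 1 was higher (5.49% of all tested genes). In bulk muscle, fewer cells of a type and less RNA per cell cannot be told apart. These counts rest on only 2 samples per age. Leaving out a sample leaves 1 sample in its age, so only effect sizes are given here for such fits. The median log2 fold change of the members was -0.26 without Old 1 or without Young 1, and -0.23 without Old 2 or without Young 2. With the values as deposited, 0 members were called by limma in either direction, beside 18 genes higher and 13 lower of all 10266 tested. That setting could call few genes whatever the members did. In simulated data not divided by the factors, the fit recovered 0 of 100 genes changed by a log2 of 1 and 0 of 100 changed by 2.

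**Figure D1:**
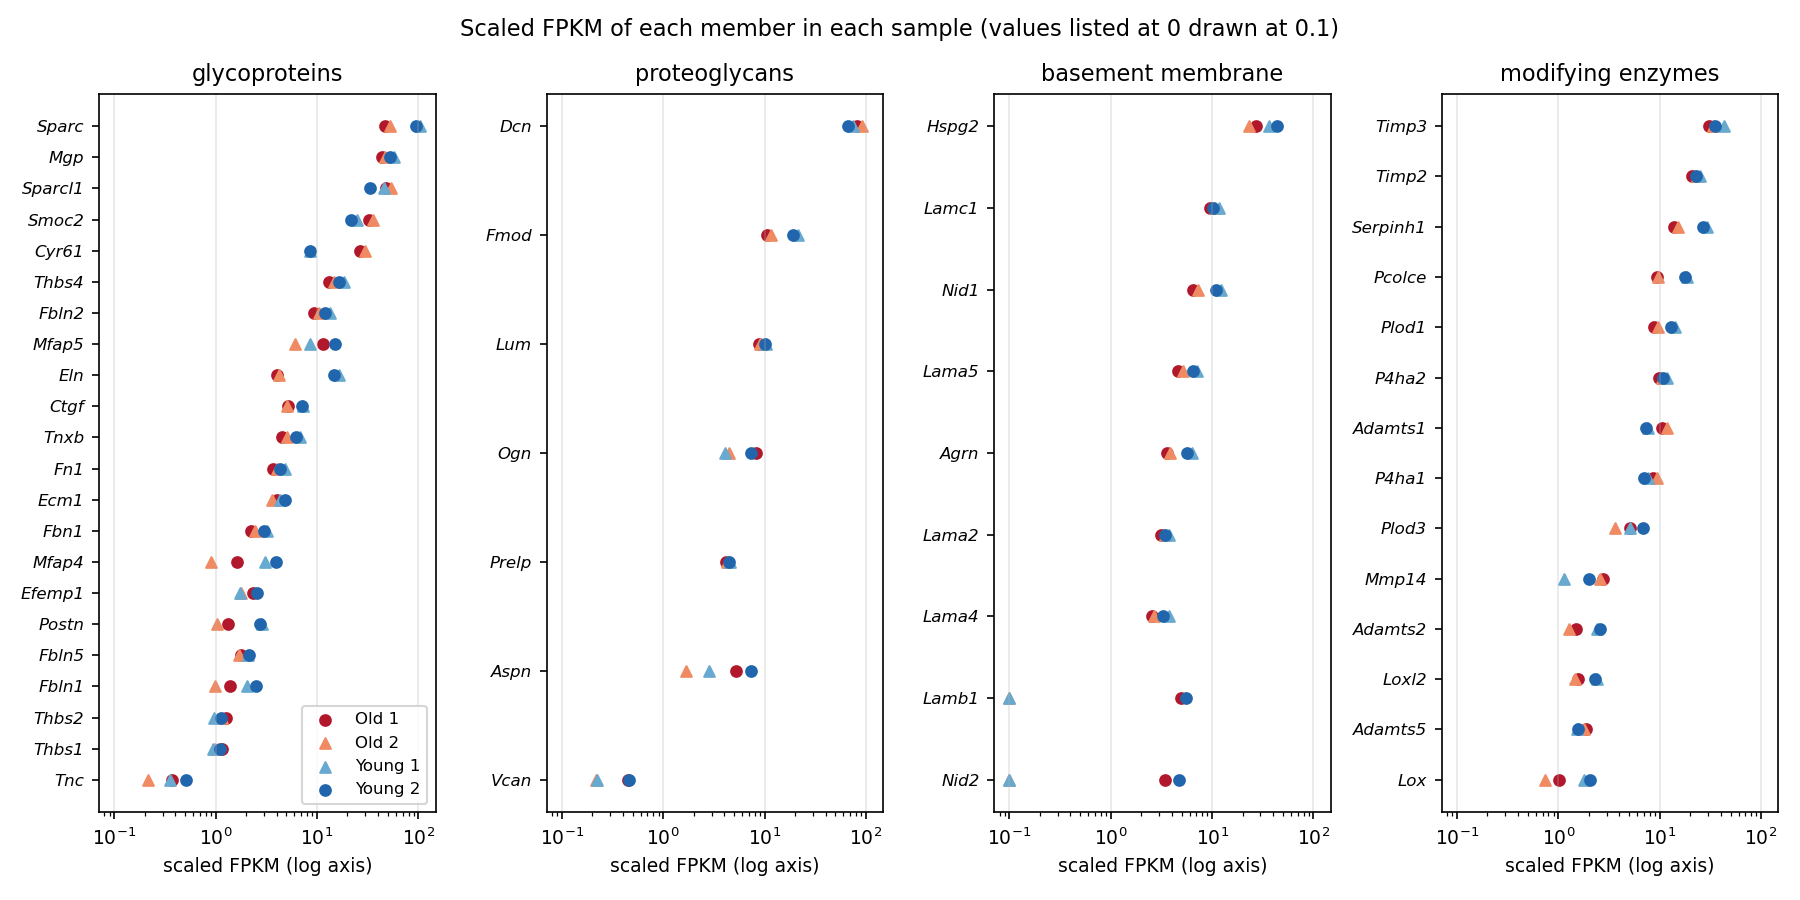
Scaled FPKM on a log axis for each member with a value, as 1 point per sample in the 4 classes, with levels of 0 drawn at 0.1. Dcn and Sparc had the highest levels, Tnc and Vcan the lowest, and Nid2 and Lamb1 were listed at 0 in Old 2 and Young 1.

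**Figure D2:**
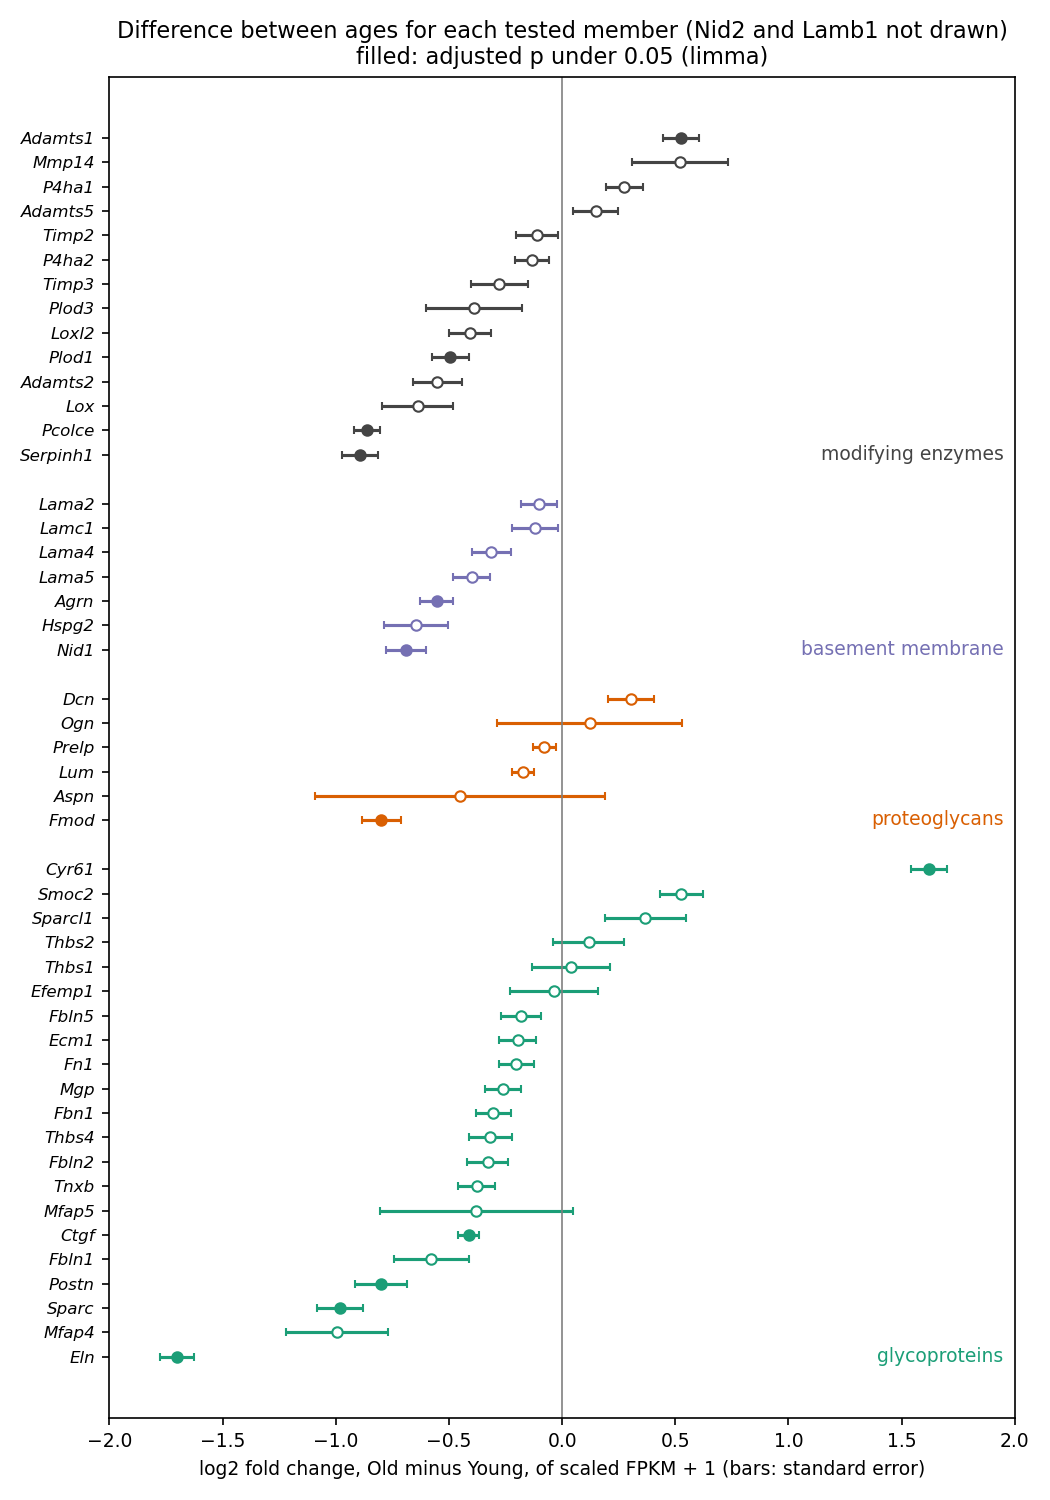
Log2 fold change (Old minus Young) of the tested members by class, with bars of 1 standard error and filled points for an adjusted p under 0.05 in limma. Eln at -1.70 and Cyr61 at 1.62 lie at the ends, and Nid2 and Lamb1 are not drawn because their standard errors of 1.28 and 1.43 span the axis.

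Among the glycoproteins, 21 were tested, and the median log2 fold change was -0.30. By limma 4 fell (19.0%) and 1 rose (4.76%), beside 7.94% and 5.61% of all tested genes. At an unadjusted p under 0.05 in limma, 11 were lower and 2 higher, beside 17.7% and 16.2% of all tested genes. The 8 genes of the elastic fiber were all below 0 (median -0.35), though only Eln passed the test. Eln (chr5:134702596-134747254, mm10) encodes elastin, the rubber-like core of the fiber, and its level was 4.04 and 4.18 in Old 1 and Old 2 and 16.5 and 14.8 in Young 1 and Young 2. Both Old samples were thus far below both Young samples, and the groups did not come near each other. The log2 fold change of Eln was -1.70 (SE 0.07, adjusted p = 0.0205, limma), the lowest of all members. Mfap4, a microfibril-associated protein that binds elastin, had levels of 1.64 and 0.893 in Old and 3.04 and 3.91 in Young. Its difference of -0.99 was close to that of Sparc, but its spread within an age was wider (SE 0.23, adjusted p = 0.0761, limma).

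The scaffold on which elastin is laid had smaller log2 fold changes than elastin itself. Fbn1 (fibrillin 1, the chief microfibril protein) had a log2 fold change of -0.30 (adjusted p = 0.0917, limma), with levels of 2.24 and 2.42 in Old and 3.24 and 2.98 in Young. Within each sample, the ratio of Eln to Fbn1 was 1.80 and 1.73 in Old and 5.09 and 4.95 in Young, so it was 0.351 times as high in Old whatever the factor per sample. The fibulins, which join elastin to microfibrils and basement membranes, lay at -0.58 for Fbln1, -0.33 for Fbln2 and -0.18 for Fbln5, and none of these was called. Efemp1, which encodes fibulin 3, was at -0.04 with overlapping groups. Mfap5 (-0.38, SE 0.43) also overlapped, with levels of 11.6 and 6.13 in Old and 8.53 and 14.9 in Young.

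The matricellular genes went both ways. Of 10 tested, 3 fell and 1 rose by limma, beside 7.94% and 5.61% of all tested genes. Counted at an unadjusted p under 0.05 in limma, 5 were lower and 2 higher, beside 17.7% and 16.2% of all tested genes. By sign alone, 5 had log2 fold changes above 0 and 5 below. Sparc (chr11:55394501-55420080, mm10), also called osteonectin, is a collagen-binding protein that fibroblasts and endothelial cells secrete in quantity, and its level was 47.1 and 52.9 in Old and 105 and 94.2 in Young. Both Old values lay below both Young values, and the log2 fold change was -0.98 (SE 0.10, adjusted p = 0.0291, limma). Its relative Sparcl1 (hevin) had levels of 48.4 and 53.2 in Old and 45.4 and 33.6 in Young, which did not overlap but were not called (0.37, SE 0.18, adjusted p = 0.272, limma). The 2 genes were thus at nearly equal levels in Old, with a ratio of Sparc to Sparcl1 of 0.974 and 0.994, whereas Sparc was the higher in Young at 2.31 and 2.80. Postn (periostin), a protein of growing and injured connective tissue, was at 1.33 and 1.04 in Old and 2.86 and 2.75 in Young, with a log2 fold change of -0.80 (SE 0.11, adjusted p = 0.041, limma), the groups being apart.

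Cyr61 and Ctgf are a pair of CCN family genes, both quickly induced by stretch and growth factors in many cells, and they moved in opposite directions. Cyr61 (chr3:145646971-145649985, mm10) had the largest increase of the members, with levels of 26.7 and 30.0 in Old and 8.62 and 8.48 in Young, and a log2 fold change of 1.62 (SE 0.08, adjusted p = 0.0205, limma). Every Old value was more than every Young value by a wide margin. Ctgf (chr10:24595442-24598682, mm10) was at 5.20 and 5.10 in Old and 7.25 and 7.12 in Young, and its log2 fold change was -0.41 (SE 0.05, adjusted p = 0.0311, limma). The Ctgf difference was small but the spread within each age was smaller still, so the groups did not overlap. Within each sample, which needs no scaling, Cyr61 was 5.15 and 5.89 times as high as Ctgf in Old and 1.19 times as high in both Young samples, a change of 4.63 times in the ratio.

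Other matricellular genes were not called. Smoc2, a calcium-binding relative of Sparc, came closest, with levels of 32.5 and 35.4 in Old and 24.6 and 21.9 in Young and a log2 fold change of 0.53 (SE 0.09, adjusted p = 0.0532, limma). Reads of Smoc2 may be shared with an overlapping gene, 4930474M22Rik. Tnxb, tenascin X of the loose connective tissue, lay just short on the other side (-0.38, adjusted p = 0.071, limma). The thrombospondins bind calcium and cell receptors. Thbs4, the highest of them at 13.0 to 18.3, was lower in both Old samples (-0.32), whereas Thbs1 at 0.04 and Thbs2 at 0.12 were near the filter and not called. The other glycoproteins showed values of the same sign and were not called: Fn1 (fibronectin) was at -0.20, Mgp (matrix Gla protein, which checks calcification) at -0.26 and Ecm1 at -0.20.

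**Figure D3:**
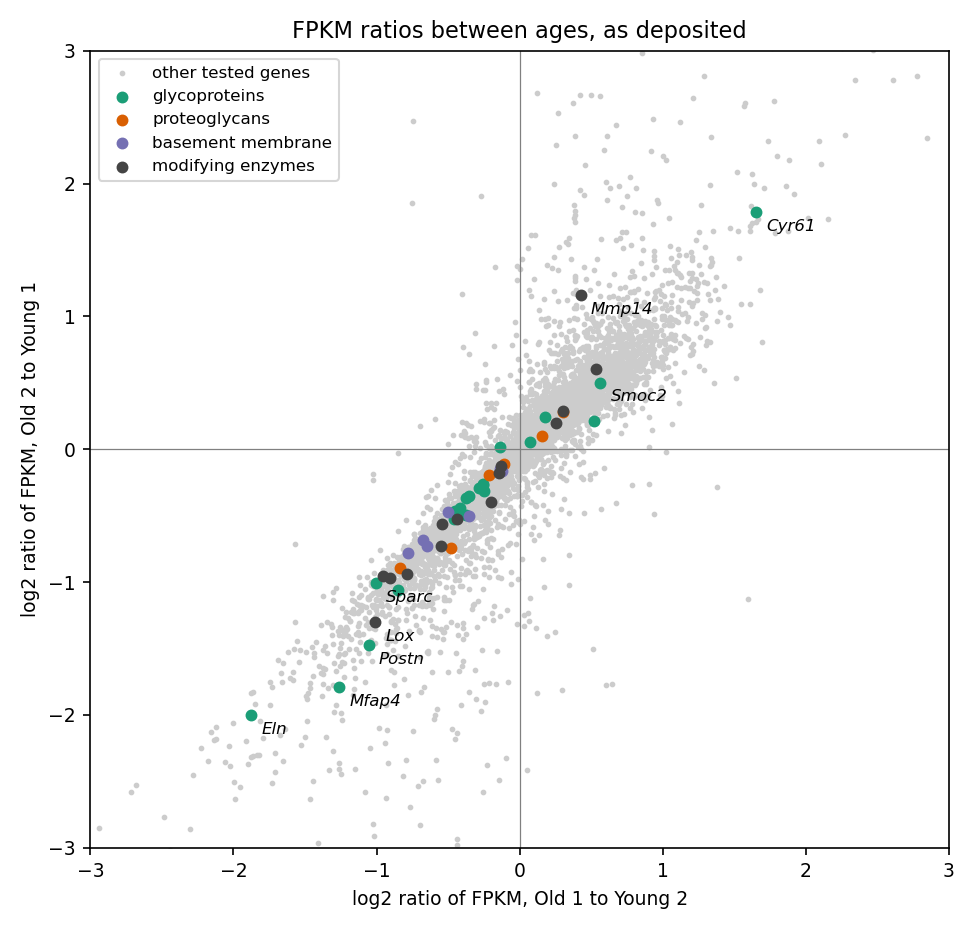
Log2 ratio of deposited FPKM of Old 1 to Young 2 (x axis) against Old 2 to Young 1 (y axis), 1 point per tested gene with values above 0, members coloured by class; genes beyond the ends of the axes are not shown. Members lie along the diagonal, mostly in the lower left, with Cyr61 far to the upper right and Eln to the lower left.

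The plot of deposited ratios set samples of similar scale beside each other, a pairing chosen from the values and not from the labels. Of the 50 members with values above 0 in all samples (Tnc and Vcan included, Nid2 and Lamb1 not), both ratios were below 1 for 38, above 1 for 11 and on opposite sides for Efemp1 alone. Over the 9293 tested genes with values above 0 in all samples, these shares were 48.6%, 45.5% and 5.93%. Eln was 0.272 and 0.250 times its Young value in the pairs, and Serpinh1 was 0.517 in each. Mmp14 was the member on which the pairs differed most visibly, with ratios of 1.34 and 2.23.

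Of the proteoglycans, 6 were tested, all of them small leucine-rich proteoglycans, which bind collagen fibrils and set their width and spacing. By limma 1 fell (16.7%) and 0 rose, beside 7.94% and 5.61% of all tested genes. At an unadjusted p under 0.05 in limma, 2 were lower and 0 higher, beside 17.7% and 16.2% of all tested genes. The median log2 fold change was -0.13, which turned to 0.032 without Old 2 and to 0.0105 without Young 2. Fmod (fibromodulin), typical of tendon and other dense tissue, was at 10.6 and 11.6 in Old and 21.2 and 18.9 in Young. The groups were well apart, and the log2 fold change was -0.80 (SE 0.09, adjusted p = 0.0295, limma). Its neighbour on chromosome 1, Prelp, which anchors basement membranes to collagen, was at -0.08 and not called, and Fmod was 2.56 and 2.70 times as high as Prelp in Old and 4.64 and 4.24 times in Young.

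Dcn (decorin), the most abundant member on average, was at 81.9 and 91.1 in Old and 74.0 and 65.9 in Young. Both Old values were the higher, but the test did not call it (0.30, SE 0.10, adjusted p = 0.148, limma). Lum (lumican), which lies beside Dcn on chromosome 10, had a value of the other sign, with levels of 8.76 and 9.04 in Old and 10.2 and 10.1 in Young (-0.17, adjusted p = 0.108, limma). The ratio of Dcn to Lum was therefore higher in Old, at 9.36 and 10.1 against 7.24 and 6.52. The levels of Ogn (osteoglycin) and Aspn (asporin) each overlapped between ages, though the ratio of Ogn to Aspn did not. That ratio was 1.57 and 2.63 in Old and 1.46 and 1.01 in Young. Aspn was at 5.29 and 1.69 in Old and 2.80 and 7.32 in Young (-0.45, SE 0.64, adjusted p = 0.761, limma), and Ogn at 8.30 and 4.45 against 4.10 and 7.40. The files place both in 1 locus with Cenpp, Ecm2 and Omd, and how reads were divided among these genes was not tested.

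All 9 basement membrane genes were tested and all 9 had log2 fold changes below 0, from -0.69 to -0.07 with a median of -0.31. By limma 2 fell (22.2%) and 0 rose, beside 7.94% and 5.61% of all tested genes. At an unadjusted p under 0.05 in limma, 5 were lower and 0 higher, beside 17.7% and 16.2% of all tested genes. Both Old values were below both Young values in 5 (28.4% of all tested genes did so). The median of the class was -0.52 without Old 1 and -0.49 without Young 1. Nid1 (nidogen 1), the link between laminin and collagen IV, was at 6.44 and 7.20 in Old and 12.2 and 11.0 in Young, with no overlap. It had a log2 fold change of -0.69 (SE 0.09, adjusted p = 0.0358, limma). Agrn (agrin), a heparan sulfate proteoglycan known for gathering acetylcholine receptors at the nerve-muscle contact, was at 3.62 and 3.84 in Old and 6.28 and 5.63 in Young, again with the groups apart (-0.55, SE 0.07, adjusted p = 0.0385, limma). Hspg2 (perlecan), the other large heparan sulfate proteoglycan and the most abundant gene of the class, was at 27.2 and 23.0 in Old and 36.4 and 43.3 in Young. Hspg2 had no overlap between ages but missed the threshold (-0.64, SE 0.14, adjusted p = 0.0708, limma).

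The laminin chains had log2 fold changes nearer to 0, and none was called. Lama5, found in vessel basement membranes and at the nerve-muscle contact, was at 4.62 and 5.19 in Old and 7.09 and 6.49 in Young (-0.40, adjusted p = 0.0662, limma), and Lama4, of vessels, at 2.55 and 2.67 in Old and 3.73 and 3.25 in Young (-0.31, adjusted p = 0.103, limma). For both chains the ages were apart. Lama2, the chain of the muscle fiber itself, had overlapping groups at 3.13 and 3.46 in Old and 3.78 and 3.43 in Young (-0.10), as did its partner Lamc1 (-0.12). Measured against Lamc1 within each sample, Lama2 was at 0.331 and 0.325 in Old and 0.322 and 0.335 in Young, while Lama5 was at 0.488 and 0.489 in Old and 0.605 and 0.633 in Young. Nid2 and Lamb1 were listed at 0 in Old 2 and Young 1 and at 3.47 to 5.48 in the other samples, so their differences of -0.17 and -0.07 say little. Both share a locus with another gene in the files, Nid2 with 2700060E02Rik and Lamb1 with Dld. With these members left out, the median of the class was -0.40.

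Of 14 tested modifying enzymes and partners, 3 fell (21.4%) and 1 rose (7.14%), beside 7.94% and 5.61% of all tested genes. At an unadjusted p under 0.05 in limma, 6 were lower and 2 higher, beside 17.7% and 16.2% of all tested genes. The median log2 fold change was -0.33. Serpinh1 (chr7:99345375-99353239, mm10) encodes HSP47, the chaperone that holds the procollagen triple helix in the endoplasmic reticulum, and its level was 14.0 and 15.3 in Old and 29.1 and 27.0 in Young. The log2 fold change was -0.89 (SE 0.08, adjusted p = 0.0258, limma), the groups being apart. Plod1, a lysyl hydroxylase that prepares collagen for crosslinking, was at 8.83 and 9.67 in Old and 14.1 and 12.8 in Young (-0.49, SE 0.08, adjusted p = 0.0485, limma), near the threshold but without overlap. Plod3 (-0.39, SE 0.21) was not called, and its row is labelled with Mir702 as well and shares its locus with Znhit1. The prolyl hydroxylase subunits, which stabilize the helix, were at 0.28 for P4ha1 and -0.13 for P4ha2, neither of them called. Serpinh1 was 1.62 and 1.61 times as high as P4ha1 in Old and 3.80 and 3.87 times in Young, and 1.41 and 1.43 times as high as P4ha2 in Old and 2.45 and 2.48 times in Young.

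Both genes of procollagen trimming were lower in both Old samples. Pcolce, the enhancer of the enzyme that removes the carboxyl propeptide, was at 9.48 and 9.70 in Old and 18.8 and 17.7 in Young. It fell by 0.86 on the log2 scale (SE 0.06, adjusted p = 0.0227, limma), and no value of an age reached the other. Adamts2, which removes the amino propeptide, was at 1.51 and 1.27 in Old and 2.41 and 2.59 in Young and just missed the call (-0.55, SE 0.11, adjusted p = 0.0608, limma). The crosslinking enzymes Lox at 1.02 and 0.739 in Old and 1.79 and 2.05 in Young (-0.64, adjusted p = 0.0862, limma) and Loxl2 at 1.58 and 1.46 in Old and 2.38 and 2.30 in Young (-0.41, adjusted p = 0.0748, limma) had no overlap and no call.

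The 3 proteases that cut the matrix all had values above 0. Adamts1, which cleaves versican and other proteoglycans, was at 10.6 and 11.9 in Old and 7.73 and 7.27 in Young. It rose by 0.52 on the log2 scale (SE 0.08, adjusted p = 0.0444, limma), the only called increase of the class. Adamts5, its neighbour on chromosome 16 and an aggrecan-cleaving relative, was at 1.87 and 1.79 in Old and 1.54 and 1.56 in Young (0.15, adjusted p = 0.416, limma). Mmp14, a membrane-bound collagenase, was at 2.73 and 2.56 in Old and 1.13 and 2.02 in Young, as large a difference as Adamts1 but with a wider spread between the Young samples (0.52, SE 0.21, adjusted p = 0.203, limma). The metalloproteinase inhibitors Timp2 (-0.11) and Timp3 (-0.28) were not called. Both lie in loci shared with other genes, Timp3 with Syn3 and Timp2 with BC100451.

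**Figure D4:**
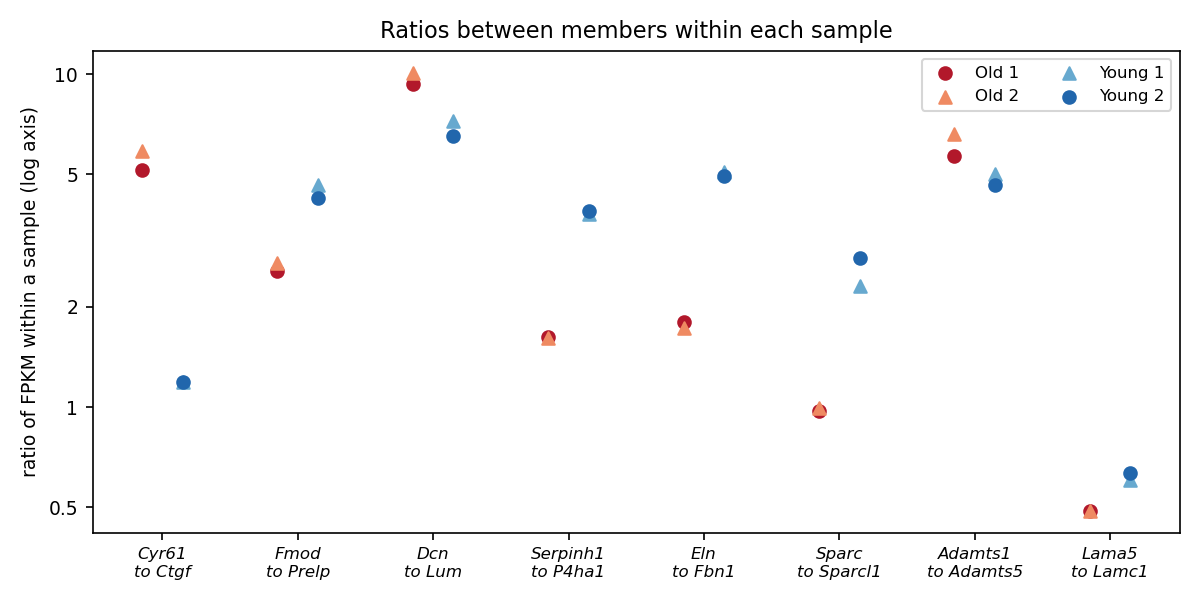
Ratio of FPKM of pairs of members within each sample on a log axis, which 1 factor per sample cannot move. The pairs shown are among those computed whose ages did not overlap, and they lie farthest apart for Cyr61 to Ctgf (5.15 and 5.89 against 1.19) and Eln to Fbn1 (1.80 and 1.73 against 5.09 and 4.95).

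The ratios plotted within samples compare genes of related function and do not depend on the factor between samples. Of the pairs computed, Smoc2 to Thbs2 (25.4 and 30.4 in Old, 25.5 and 19.4 in Young) and Lama2 to Lamc1 overlapped between ages and were not plotted. An exact two-sided permutation test of 2 against 2 cannot go below p = 0.33, so no test of a ratio is given. The most abundant member was Dcn in Old and Sparc in Young, Dcn making up 14.1% and 15.3% of summed member FPKM in Old and 10.5% and 9.74% in Young, and Sparc 8.13% and 8.88% in Old and 14.8% and 13.9% in Young. Cyr61 made up 4.61% and 5.05% in Old and 1.22% and 1.25% in Young. By class, proteoglycans held 20.6% in both Old samples and 16.5% and 16.9% in Young, most of it Dcn in every sample. Glycoproteins held 45.9% to 47.7% over all samples with the ages overlapping. Modifying enzymes held 21.9% and 22.6% in Old and 24.2% and 23.3% in Young. Basement membrane genes held 11.3% and 9.4% in Old and 11.5% and 13.8% in Young. Summed over all members, the scaled level was 579.5 and 595.3 in Old and 708.1 and 676.4 in Young.

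Promoters were read for the members in RefSeq's table (GRCm38.p6), which held 35 of the 53, as the 250 bases before the start of transcription. The table held none for Eln, the member that fell most, or for Ctgf. The 2 genes that rose and 3 of those that fell most are printed, since their promoters can be set side by side, 5′ to 3′ on the minus strand, which is the strand of each of the 5 genes. Capitals mark any match, on either strand, to TATAAA (the box bound by the TATA-binding protein), GGGCGG (the motif of Sp1) or GGAATG (the TEAD motif), the latter read as CATTCC on the other strand; where matches meet, the capitals run on. The places are chr3:145649986-145650235 for Cyr61, chr16:85803114-85803363 for Adamts1, chr11:55420081-55420330 for Sparc, chr7:99353240-99353489 for Serpinh1 and chr5:137611405-137611654 for Pcolce.
Cyr61: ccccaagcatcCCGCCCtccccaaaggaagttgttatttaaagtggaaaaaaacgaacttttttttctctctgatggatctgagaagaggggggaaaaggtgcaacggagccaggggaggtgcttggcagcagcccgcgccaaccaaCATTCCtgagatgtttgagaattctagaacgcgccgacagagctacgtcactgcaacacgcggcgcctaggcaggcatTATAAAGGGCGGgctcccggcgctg
Adamts1: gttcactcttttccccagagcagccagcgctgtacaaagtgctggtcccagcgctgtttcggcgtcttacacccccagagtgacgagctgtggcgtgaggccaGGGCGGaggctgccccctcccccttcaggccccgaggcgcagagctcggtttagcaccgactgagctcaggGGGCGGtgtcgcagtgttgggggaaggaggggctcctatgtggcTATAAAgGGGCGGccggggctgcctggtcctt
Sparc: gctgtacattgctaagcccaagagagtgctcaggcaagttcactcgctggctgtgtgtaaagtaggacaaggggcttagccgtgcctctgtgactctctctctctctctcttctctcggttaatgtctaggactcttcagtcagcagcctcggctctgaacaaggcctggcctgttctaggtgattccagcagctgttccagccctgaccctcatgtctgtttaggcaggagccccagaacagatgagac
Serpinh1: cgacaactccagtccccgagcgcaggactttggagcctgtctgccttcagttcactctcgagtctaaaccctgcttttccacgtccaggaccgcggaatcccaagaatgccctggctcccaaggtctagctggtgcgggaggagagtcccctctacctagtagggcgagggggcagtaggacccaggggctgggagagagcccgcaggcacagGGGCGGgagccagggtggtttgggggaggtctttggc
Pcolce: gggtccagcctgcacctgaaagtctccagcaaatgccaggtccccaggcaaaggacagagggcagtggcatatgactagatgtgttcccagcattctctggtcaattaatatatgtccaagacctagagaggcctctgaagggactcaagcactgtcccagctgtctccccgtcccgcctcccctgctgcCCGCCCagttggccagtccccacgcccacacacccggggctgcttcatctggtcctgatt

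TATAAA stood 25 bases before the start in Cyr61 and 32 bases in Adamts1, and GGGCGG was found in both. The TEAD letters were in Cyr61 at 103 bases before the start and not in this window of Adamts1. Of the 8 called decreases with a promoter in the table, TATAAA was in 2 (Postn at 26 bases and Plod1 at 232), GGGCGG in 5 and GGAATG in 1 (Nid1). Over all 35 promoters, TATAAA was in 9 (12.4% of all 32841 promoters in the table had it), GGGCGG in 25 (32.7% of all promoters), GGAATG in 4 (12.6%) and the AP-1 letters TGANTCA in 3 (6.75%). The heat shock element was in 0 of 35, Serpinh1 included (0.466% of all promoters), and a CArG box was in Lama2 alone (1.47%). A match here is a run of letters and not a measured binding site.

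**Figure D5:**
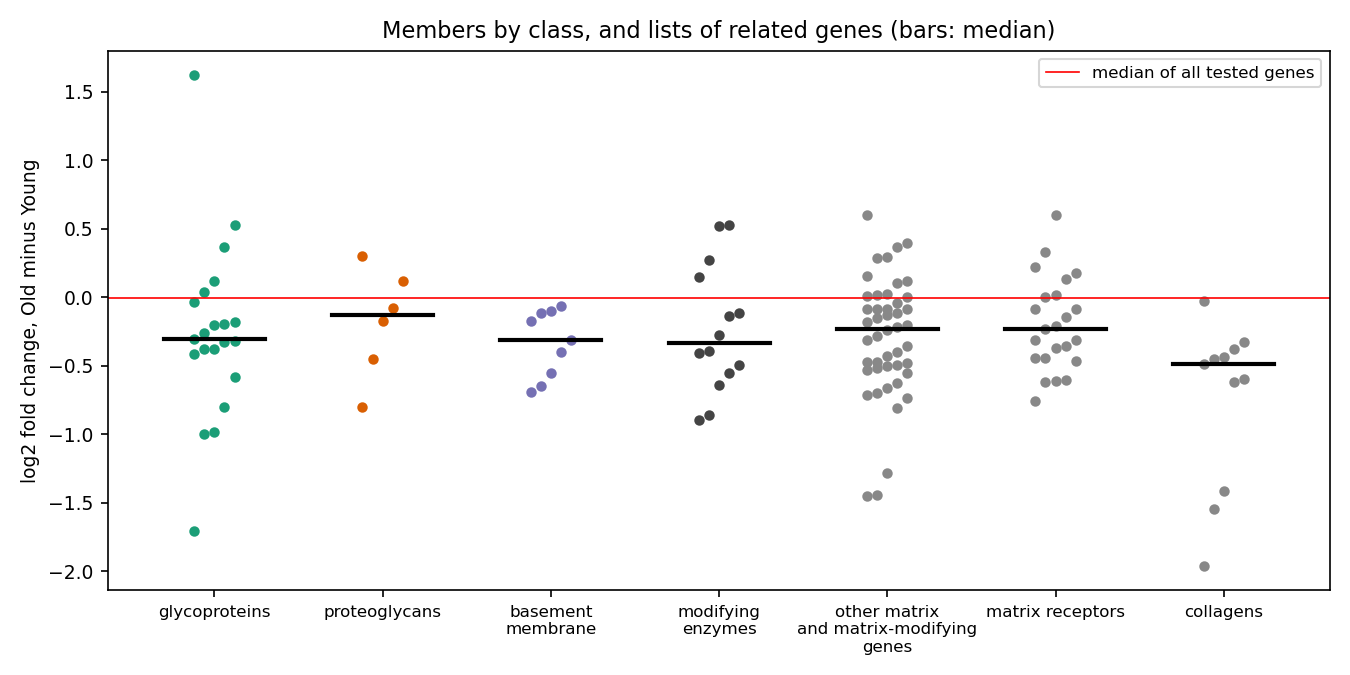
Log2 fold change (Old minus Young) of each tested gene in the 4 classes of members, in other matrix and matrix-modifying genes, in matrix receptors and in collagens, with black bars for medians and a red line for the median of all tested genes. Every class and list has its median below the line, from -0.13 in proteoglycans to -0.48 in collagens.

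Genes of the matrix outside the 53 also had medians below 0. Beside the counts that follow, 7.94% of all tested genes fell and 5.61% rose. At an unadjusted p under 0.05 in limma, 17.7% of all tested genes were lower and 16.2% higher. Of 88 other matrix and matrix-modifying genes, 71 had a value and 46 were tested, and 8 fell and 1 rose with a median log2 fold change of -0.23. The lowest were Adamtsl2 (-1.45), Timp4 (-1.44, a metalloproteinase inhibitor) and Adamtsl4 (-1.28), and Htra1, a secreted protease, rose by 0.60. Of 23 tested matrix receptors 7 fell and 1 rose, Itga7 (-0.76), the laminin-binding integrin of muscle fibers, with Cd36 (-0.62) and Sdc3 (-0.61) the lowest and Itgb5 (0.60) the highest. Of 11 tested collagens 5 fell and 0 rose (9 and 0 at an unadjusted p under 0.05 in limma), led by Col1a1 (-1.96), Col1a2 (-1.54) and Col3a1 (-1.41).

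Markers of the cells that make the matrix were compared beside these results and the same shares of all tested genes. Of 5 tested fibroblast markers, 0 were called by limma in either direction (3 lower and 0 higher at an unadjusted p under 0.05), and their summed level was 39.4 and 42.3 in Old and 47.9 and 44.0 in Young. Pdgfra and Dpt were at 0.16 and 0.22 and Pi16, Cd34 and Col6a3 at -0.20, -0.39 and -0.48. Of 7 endothelial markers 0 were called by limma (3 lower at an unadjusted p under 0.05), with sums of 82.1 and 89.3 in Old and 105.5 and 96.4 in Young. Among 6 markers of pericytes and smooth muscle Acta2 (-0.50) and Pdgfrb (-0.47) fell, and their sums overlapped between ages, from 160.4 to 219.0. Mrc1 (-0.97) fell among 6 tested macrophage markers, all 6 of which had values below 0. The sums of the 8 macrophage markers with a value were 13.2 and 8.43 in Old and 14.3 and 19.7 in Young. Tenocyte markers were uneven between samples of an age, with sums of 14.0 and 1.58 in Old and 3.79 and 11.7 in Young, and Scx, their defining factor, was listed at 0 in Old 2 and Young 1. Fabp4, which endothelial cells also express, held most of the summed level of the adipocyte markers, of which 0 of 4 were called by limma (1 higher at an unadjusted p under 0.05). The part of any of these cells in the members' differences was not tested.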

How the data were processed

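Messenger RNA of TA muscle was measured in 4 samples, 2 for each age, grouped by the titles and ages in the labels. The authors trimmed the reads, removed duplicates with in-house programs, aligned to mm10 with TopHat2 2.0.10 guided by RefSeq, and deposited FPKM per locus and sample from Cufflinks; the submitters' processing notes name Cuffdiff 2.1.1. Depth was unknown, and whether counting used strand is not settled, since the labels and the methods name different kits. Values were read for 20605 rows present in all 4 samples, 1 incomplete line per sample was left out, and rows of a symbol were summed.

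Each sample was divided by 1 factor, from its median log2 ratio to the mean of the 4 samples over the 7228 genes that reached 1 FPKM in every sample. limma 3.58.1 in R 4.3.3 (lmFit, eBayes with trend, two-sided, Benjamini-Hochberg) was run on log2(scaled FPKM + 1) for the 10266 genes that reached 1 FPKM in 2 or more samples. The fit was tested on simulated data for this comparison, with the factors between samples and 9743 genes passing the filter. It recovered 100 of 100 genes changed by a log2 of 1 and 100 of 100 changed by 2, with 16 false calls. Without division by the factors, the same fit recovered 0 of 100 at each size, with 0 false calls. The simulated noise was independent between genes and equal in size for all of them, whereas standard errors of the members differed. Full recovery there does not show that a real change of that size would be called: Mfap4, at -0.99 (SE 0.23), was not. P-values measure only the spread between these samples, which may be technical. Full statistics were given for up to 6 called members per class by size of log2 fold change, filled to 3 where fewer were called; for other lists, the 3 largest called changes each way. The members, classes and lists were chosen with earlier results of these data known. Markers of 1 further cell type are not reported here. Alternatives were other scalings, pseudocounts, filters, variance models, blocks and samples left out.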

Additional observations from a re-analysis of the deposited data

How the results depend on the processing

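All 50 tested members kept their sign under the 4 scalings tried (1 factor, as deposited, quantile, cyclic loess), but the number called did not hold. Members called higher and lower, 2 and 10 in the report, were 0 and 0 with values as deposited, 1 and 4 with quantile normalization, 4 and 15 with cyclic loess, 3 and 14 with a minimum of 1 FPKM in every sample, 1 and 3 with no filter on low values, and 1 and 2 in limma without the trend. By a fold of at least 1.5 between age means, with no test, 1 was higher. A minimum of 1 FPKM in every sample left 7228 genes to test and no filter left 15823, against 10266 in the report. Counts under these filters are therefore not over the same genes or members. All tested genes called higher and lower, 576 and 815 in the report, were 18 and 13 as deposited, 119 and 188 with quantile normalization, 1135 and 1395 with cyclic loess, 1222 and 1302 with a minimum of 1 FPKM in every sample, 114 and 202 with no filter, 103 and 181 without the trend, and 0 to 259 and 2 to 339 with a sample left out.

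The labels' numbers did not pair the samples: deviations of same-numbered samples correlated at -0.903 over 10266 genes, and the replicate block gave 0 members higher and 0 lower, and 24 and 21 over all genes. Crossed pairs as a block, chosen after seeing the data, gave 7 members higher and 34 lower and 3242 and 3503 genes.

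The median log2 fold change of the members was -0.27 with quantile normalization, -0.31 with a pseudocount of 0.1, -0.28 with that minimum in every sample, -0.27 with no filter, -0.31 without the members listed at 0 (chosen after seeing the data), and -0.26 to -0.23 with a sample left out. With a sample left out it was -0.33 to -0.25 for glycoproteins, -0.33 to -0.26 for modifying enzymes, -0.52 to -0.34 for the basement membrane and -0.21 to 0.032 for proteoglycans, whose sign turned without Old 2 (0.032) and without Young 2 (0.0105). With that minimum in every sample the modifying enzymes were at -0.21 and the basement membrane at -0.40, as it was with a pseudocount of 0.1 or without the members listed at 0. Aspn ranged from -1.06 to 0.16 with a sample left out, and turned sign without Old 2 (0.16) and without Young 2 (0.11). Of 194 values of 15 members (the 12 called, with Dcn, Aspn and Hspg2), 84 lost the call, 2 gained it (Dcn with cyclic loess, Hspg2 with the minimum in every sample) and 2 turned sign. With quantile normalization, Cyr61, Eln, Sparc, Serpinh1 and Pcolce kept the call. Cyr61, Eln, Serpinh1 and Pcolce kept it with no filter on low values, and Cyr61, Eln and Pcolce without the trend. Adamts1, Postn, Ctgf, Fmod, Plod1, Nid1 and Agrn lost it in each of these settings. The cause of these changes was not tested. Depth is unknown and limits what low members such as Postn and Lox can show.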
